A study of Mus musculus with 24 samples.

Results

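The genotype by training interaction asks whether mice with a single intact copy of Actl6b answered a learning event with the same transcripts, and to the same extent, as wild-type mice. It was defined per gene as the trained minus home cage difference in Baf53b+/- mice minus that difference in wild-type mice, on log2(RPKM + 0.5), where RPKM counts the reads on a gene relative to its length and to the library's reads. It was computed from all 24 libraries for the 12399 of 19661 genes whose mean reached 1 RPKM, which together hold 99.5% of the RPKM. A positive value means that the trained minus home cage difference was higher in heterozygotes, that is, a larger rise or a smaller fall, and a negative value the reverse.

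The Actl6b gene encodes BAF53b, an actin-related subunit of the neuron-specific form of the BAF chromatin remodelling complex, which takes the place of BAF53a, the Actl6a product, when progenitors become neurons. Firing neurons switch on early genes within minutes: transcription factors such as Fos, Egr1 and Npas4, effectors that act at synapses such as Arc, and feedback inhibitors of the signalling that induced them, such as Dusp1 and Sik1. In object location memory training a mouse explores an arena with objects whose places it can remember, a task that depends on the dorsal hippocampus.

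RNA of bilateral dorsal hippocampus was sequenced from 4 groups of 6. Wild Type animals had the strain background C57BL/6J, and Baf53b+/- animals the background B6J.129S6-Actl6b<tm1Grc>. In each genotype 1 group was taken from the home cage and the other was killed 30 minutes after Object Location Memory training. Genotype therefore goes with strain background in all 4 groups, and the home cage is the sole control for training, with no group that explored the arena without objects. Age, sex and whether mice were littermates are not given in the labels. The labels number every library but do not state in words that each is a separate mouse, so the p-values measure the spread between these libraries.

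The promoters of 3 early genes that rose together in both genotypes are shown for the element they share. Each is the 250 bases before the transcription start of the RefSeq annotation (GRCm38.p6), 5′ to 3′ on the gene's strand, with TGACG, the core of the cyclic AMP response element, in capitals on either strand (CGTCA where it lies on the other one). Fos is at chr12:85473640-85473889 on the plus strand, Nr4a1 at chr15:101266596-101266845 on the plus strand and Npas4 at chr19:4989972-4990221 on the minus strand.
Fos: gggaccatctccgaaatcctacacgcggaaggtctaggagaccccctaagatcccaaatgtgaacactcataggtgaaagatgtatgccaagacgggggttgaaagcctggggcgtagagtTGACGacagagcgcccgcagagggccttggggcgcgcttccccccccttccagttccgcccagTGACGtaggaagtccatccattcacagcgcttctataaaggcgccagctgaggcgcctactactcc
Nr4a1: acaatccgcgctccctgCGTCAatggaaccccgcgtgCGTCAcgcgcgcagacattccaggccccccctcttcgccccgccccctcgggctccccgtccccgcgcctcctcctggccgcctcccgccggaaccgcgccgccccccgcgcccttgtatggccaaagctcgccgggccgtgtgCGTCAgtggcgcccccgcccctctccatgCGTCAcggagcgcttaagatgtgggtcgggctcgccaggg
Npas4: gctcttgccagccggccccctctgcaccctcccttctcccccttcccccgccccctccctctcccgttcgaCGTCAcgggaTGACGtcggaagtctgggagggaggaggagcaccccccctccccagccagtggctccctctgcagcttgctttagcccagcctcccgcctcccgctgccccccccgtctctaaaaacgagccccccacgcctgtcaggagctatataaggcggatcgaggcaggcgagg
TGACG occurred 2 times in the Fos window, 4 times in that of Nr4a1 and 2 times in that of Npas4. It occurred on either strand in 17.8% of the 32851 windows of the same length, so a match is common and describes the letters only.

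Actl6b itself separated the genotypes in every library. In wild type it ranged from 49.8 to 53.0 RPKM in the home cage (median 51.1) and from 46.4 to 54.4 after training (median 51.1). In heterozygotes it ranged from 28.7 to 32.4 RPKM in the home cage (median 29.6) and from 27.3 to 31.1 after training (median 27.7). No heterozygote reached the lowest wild-type library in either condition. The genotypes did not overlap, whichever was higher, in 0.0565% of genes in the home cage and 0.226% after training. The trained and home cage groups overlapped within each genotype, and the interaction of Actl6b was -0.07 (SE 0.05, unadjusted p = 0.22), so that the trained to home cage ratio of heterozygotes was 0.885 to 1.03 times that of wild type (95% interval).

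Depth recovered from the steps of the low RPKM values ran from 28.4 to 46.9 M reads (median 34.4), so a gene of 2 kb at 1 RPKM rests on 56.9 to 93.8 reads. The median within-group SD over genes was 0.08 to 0.09 (log2) in the 4 groups. Dentate gyrus and CA1 markers were present in every library: the transcription factor Prox1 of dentate granule cells stood between 13.3 and 33.9 RPKM. Ttr, the transthyretin gene of choroid plexus, exceeded 5 times its median in 8 libraries, 1 and 3 in the wild-type home cage and trained groups and 2 in each heterozygous group. The Y-linked gene Ddx3y exceeded 1 RPKM in 3 of 6 libraries of each group except the home cage heterozygotes, where it did so in 5. In bulk tissue, fewer cells of a type and less RNA per cell cannot be told apart.

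No gene passed the test for the interaction (0 of 12399, 0%; limma, Benjamini-Hochberg adjusted p under 0.05). The smallest adjusted p was 0.985, and 309 genes (2.49%) had an unadjusted p under 0.05, with 34 (0.274%) under 0.01. In comparison, 134 genes (1.08%) were called for training in wild type, 119 higher (0.96%) and 15 lower (0.121%). In heterozygotes 128 (1.03%) were called, 110 higher (0.887%) and 18 lower (0.145%), and for training averaged over the genotypes 517 (4.17%). The 2 responses share no animal, and across the 12399 genes they correlated with Pearson's r of 0.402 and Spearman's rho of 0.287, given as a description over genes, most of which did not respond. Among the 517 genes called on average r was 0.956, where the choice of responding genes itself widens the range.

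**Figure D1:**
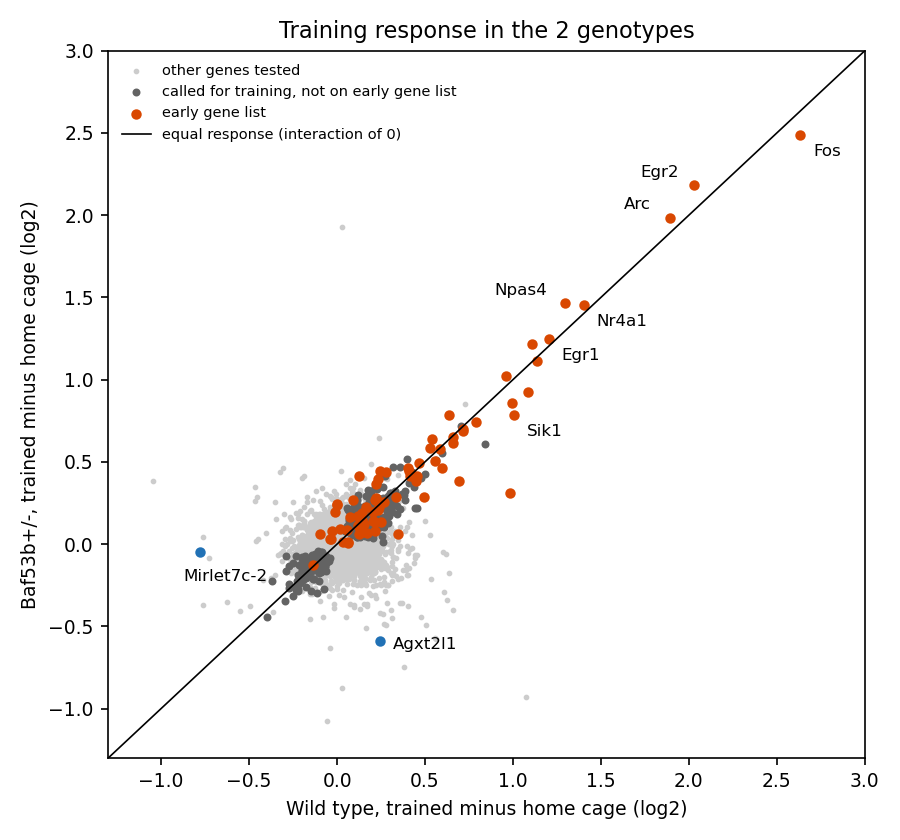
Training response (log2, trained minus home cage) in wild type on the x axis and in Baf53b+/- on the y axis, 1 point per gene tested; orange points are the early gene list, dark grey points other genes called for training on average, and the line marks an interaction of 0. Fos, Egr2, Arc, Npas4, Nr4a1 and Egr1 lie near the line, while Ctgf among the early genes (0.98 and 0.31) and Agxt2l1 and Mirlet7c-2 (blue) lie off it; 3 of the 12399 genes fall outside the axes.

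The interactions were small. The median absolute value was 0.05 (log2), the 90th percentile 0.16 and the 99th 0.40, and 46 genes exceeded 1.5-fold and 11 exceeded 2-fold. Values were above 0 in 5480 genes (44.2%) and below 0 in 6919, with a median of -0.01. That share depends on scaling, since it was 48.3% after median-ratio scaling and 50.6% after quantile normalization.

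The precision sets what the 4 groups of 6 could have detected. A median gene had a 95% interval of ± 0.155 (log2), or 1.11-fold either way, and the half-width was from 0.0893 to 0.403 between the 5th and 95th percentiles of genes. The interval lay within 1.5-fold of an equal response in 11760 genes (94.8%) and within 2-fold in 12219 (98.5%). With intervals widened to hold for all 12399 genes at once, 7720 genes (62.3%) remained bounded within 1.5-fold and 11096 (89.5%) within 2-fold. To be called as the only gene, a median gene would have needed an interaction of 0.45, or 1.36-fold, and a gene at the 95th percentile of spread 1.17, or 2.25-fold. A smaller observed interaction would therefore not have passed as the only one, and its size can be read from the interval alone. How often a true interaction of a given size would pass was not computed. The half-width for training within 1 genotype had a median of 0.110 and that for training averaged over genotypes 0.0777, so the interaction is the least precise of these contrasts.

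Precision rose with expression. Among 1355 genes between 1 and 2 RPKM the median half-width was 0.245 and 85.5% were bounded within 1.5-fold. Among 2893 genes between 20 and 100 RPKM these values were 0.122 and 98.6%, with no further gain in the 446 genes at or above 100 RPKM (0.127 and 98.2%). The narrowest interval was that of the splicing factor gene Sf3b2, with an interaction of -0.03 ± 0.0554 (half-width). The widest were those of Ttr, Xist and Eif2s3y, genes of choroid plexus and of the sex chromosomes. For Ttr the interaction was -2.003 with an interval from -7.26 to 3.25, which spans both directions.

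**Figure D2:**
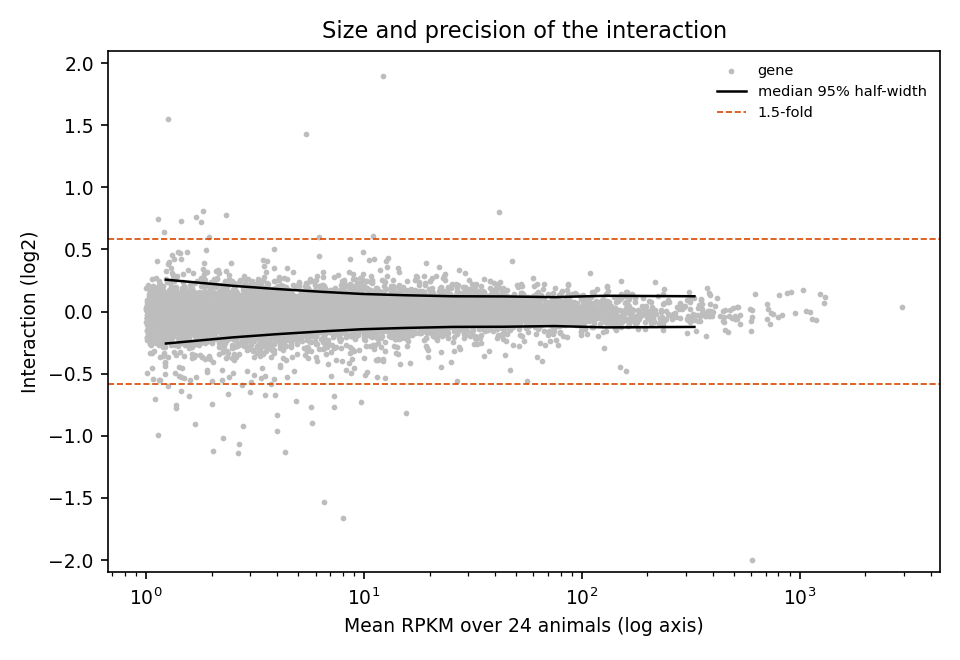
Interaction (log2) against mean RPKM over the 24 libraries (log axis), 1 point per gene, with the median 95% half-width of genes in bins of expression (black lines) and the 1.5-fold bounds (dashed lines). The half-width falls from 0.245 between 1 and 2 RPKM to 0.122 between 20 and 100 RPKM, and 46 genes lie outside the dashed lines.

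Of the early gene list, 28 of 75 tested genes rose in both genotypes (65 of all 12399 genes did). No difference between the 2 responses passed the test. Of 80 listed genes 75 were tested, and Atf3, Maff, Pim1, Amigo3 and Gem had a mean below 1 RPKM. On average over genotypes 50 of the 75 rose (3.26% of all genes did), 33 rose in wild type (0.96%), and 35 in heterozygotes (0.887%). For the interaction 0 of 75 passed limma, 1 had an unadjusted p under 0.05 (2.49% of all genes did), 37 were above 0 and 38 below, and the median was -0.00027 against -0.01 over all genes. The sign of that median is not fixed: it was 0.01 after quantile normalization, 0.05 without trained wild-type animal 2436 and 0.08 without the 8 libraries rich in Ttr. Over fits that each left out 1 library, 0 to 5 early genes had an unadjusted p under 0.05. The 5 were found without trained wild-type animal 2433, a fit in which 4.51% of all genes had such a p. In 69 of the 75 the interval lay within 1.5-fold (94.8% over all genes).

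Among the transcription factors, Fos, the AP-1 member most used as a marker of neuronal activity, had the largest response and a wide interval. Its home cage values were 1.19 to 2.74 RPKM in wild type (median 1.90) and 1.10 to 2.31 in heterozygotes (median 1.94). After training they were 10.98 to 23.4 RPKM in wild type (median 12.8) and 10.8 to 15.5 in heterozygotes (median 12.6). The trained groups stood apart from the home cage groups in both genotypes, as in 1.24% of genes in wild type and 1.33% in heterozygotes, while the 2 trained groups overlapped. The interaction was -0.15 (SE 0.26, unadjusted p = 0.578), and the heterozygous response was 94.5% of the wild-type one with an interval of 76.4% to 117% (both on the log2 scale, Fieller). Without trained wild-type animal 2436, which held the highest value, the interaction was 0.0019, and without the 8 libraries rich in Ttr it was 0.18.

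Egr1, a zinc finger factor, gave one of the tightest bounds on a strong response. It stood at 40.5 to 51.5 RPKM in wild-type home cage animals (median 44.7) and 95.1 to 123 after training (median 103), against 36.8 to 49.1 (median 42.1) and 85.7 to 107 (median 104) in heterozygotes. Its interaction was 0.04 (SE 0.10, unadjusted p = 0.673), and the response ratio was 104% with an interval of 87.6% to 122%. Egr2, of the same family, had a ratio of 107% (89.3% to 130%) and Egr4 one of 107% (85.9% to 132%). Mean Egr2 levels in the home cage were 0.314 RPKM in wild type and 0.243 in heterozygotes, against 2.86 and 2.87 after training. The home cage means lie below the 0.5 RPKM added before taking logarithms, so the Egr2 ratio and interval depend on that constant. For the AP-1 genes Junb and Fosb the ratios were 97.7% (78.5% to 121%) and 109% (81.6% to 148%). The nuclear receptor gene Nr4a1 had 104% (84.8% to 127%). Without trained wild-type animal 2436 the interaction of Egr2 was 0.28 in place of 0.15, that of Fosb 0.20 in place of 0.10, that of Egr4 0.14 in place of 0.06 and that of Nr4a1 0.14 in place of 0.05. Other left-out libraries moved Egr1 between 0.0022 (without home cage heterozygote 2417) and 0.09 (without trained heterozygote 2409), Fosb down to 0.04 and Egr2 down to 0.09 (both without wild-type home cage animal 2402), Egr4 down to 0.02 (without trained wild-type animal 2421) and Nr4a1 down to 0.00037 (without wild-type home cage animal 2418). In each of these genes all trained libraries lay above all home cage libraries in both genotypes, and the genotypes overlapped in both conditions. Egr3, also of the Egr family and named after its values were seen, had an interaction of 0.14 (SE 0.11, unadjusted p = 0.221). Its ratio of 165% had a wide interval of 72.0% to 693%.

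Npas4, a factor induced by calcium influx that acts on inhibitory synapses, was the least precise of the factors named. Its trained values spread from 2.66 to 8.48 RPKM in wild type (median 3.71) and from 2.87 to 6.23 in heterozygotes (median 3.98), over home cage values of 0.878 to 2.23 (median 1.46) and 0.724 to 1.75 (median 1.11). The interaction was 0.17 (SE 0.33, unadjusted p = 0.61), with a ratio of 113% and an interval of 67.9% to 196%. It was 0.05 without trained wild-type animal 2421 and 0.35 without 2436 of the same group. The sign of the interaction also depends on the scale: as a difference of differences in RPKM, without logarithms, it was -0.112 RPKM for Npas4 and -0.574 RPKM for Egr1, and 0 genes passed limma on that scale as well (324 at an unadjusted p under 0.05).

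**Figure D3:**
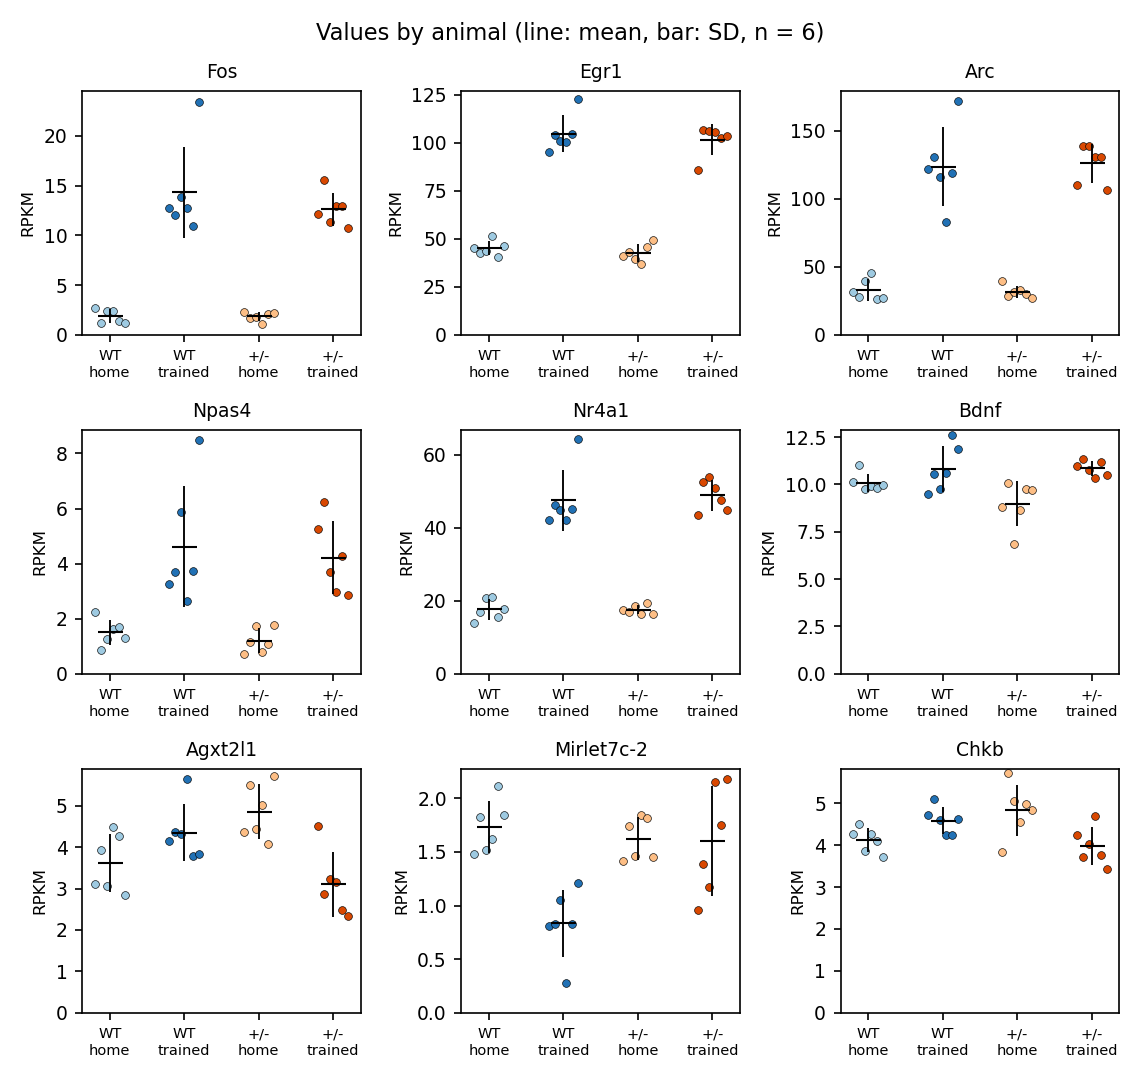
RPKM by library for 9 genes in the 4 groups of 6 (WT: wild type; +/-: Baf53b+/-), with the group mean (line) and SD (bar). Fos, Egr1, Arc, Npas4 and Nr4a1 rise in both genotypes, with trained wild-type library 2436 the highest for each, the Bdnf groups overlap in wild type and not in heterozygotes, and Agxt2l1, Mirlet7c-2 and Chkb are among the genes of smallest p, none of which passed.

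Of the effectors, Arc, whose product governs the trafficking of glutamate receptors at synapses, stood at 26.5 to 45.3 RPKM in wild-type home cage animals (median 29.8) and 26.9 to 39.2 in heterozygotes (median 30.8). Trained values were 82.7 to 172 RPKM (median 120) and 107 to 139 (median 131). The heterozygous values after training lay inside the wild-type range. Its interaction was 0.09 (SE 0.21, unadjusted p = 0.65), and the ratio was 105% with an interval of 84.1% to 131%. It was -0.01 without trained wild-type animal 2421 and 0.20 without 2436.

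The neurotrophin gene Bdnf and the pentraxin gene Nptx2 had positive values that did not pass. Bdnf stood at 9.74 to 11.01 RPKM in wild-type home cage animals (median 9.94) and 9.47 to 12.6 after training (median 10.6), and the groups overlapped. In heterozygotes it stood at 6.86 to 10.1 (median 9.26) and 10.3 to 11.3 (median 10.9), and they did not. The interaction was 0.18 (SE 0.10, unadjusted p = 0.082). It was 0.11 without home cage heterozygote 2415 and 0.23 without trained wild-type animal 2433. Nptx2, whose product clusters AMPA receptors, had the highest value of the list, 0.29 (SE 0.15, unadjusted p = 0.0685). The nuclear receptor gene Nr4a3 had 0.20 (SE 0.11, unadjusted p = 0.0832). Nr4a2 of the same family had a negative value, -0.31 (SE 0.21, unadjusted p = 0.162), and was named after its values were seen. Its ratio was 55.6% with an interval of 10.4% to 129%.

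Feedback inhibitors had values of both signs. Dusp1, a phosphatase that switches off MAP kinases, had an interaction of -0.16 (SE 0.16, unadjusted p = 0.327) and a ratio of 85.1% (59.7% to 119%). It was -0.06 without trained wild-type animal 2436 and -0.23 without trained heterozygote 2410. Sik1, a kinase that restrains CREB-dependent transcription, stood at 1.62 to 2.34 RPKM in wild-type home cage animals (median 1.71) and 3.44 to 4.99 after training (median 4.404), against 1.59 to 2.45 (median 2.06) and 3.47 to 4.64 (median 3.69) in heterozygotes. Trained and home cage groups did not overlap in either genotype, and the interaction was -0.22 (SE 0.14, unadjusted p = 0.131), a ratio of 77.8% with an interval of 54.2% to 108%. Among other phosphatases of this family, Dusp6 had 0.10 (SE 0.09), Dusp4 0.16 (SE 0.10), Dusp14 0.07 (SE 0.08) and Dusp5 -0.02 (SE 0.17). Ier3 was the 1 early gene with an unadjusted p under 0.05, at -0.29 (SE 0.13, unadjusted p = 0.0418), and its response was not called on average. The lowest value, that of the matricellular gene Ctgf at -0.67 with a half-width of 1.003, was named after its values were seen.

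**Figure D4:**
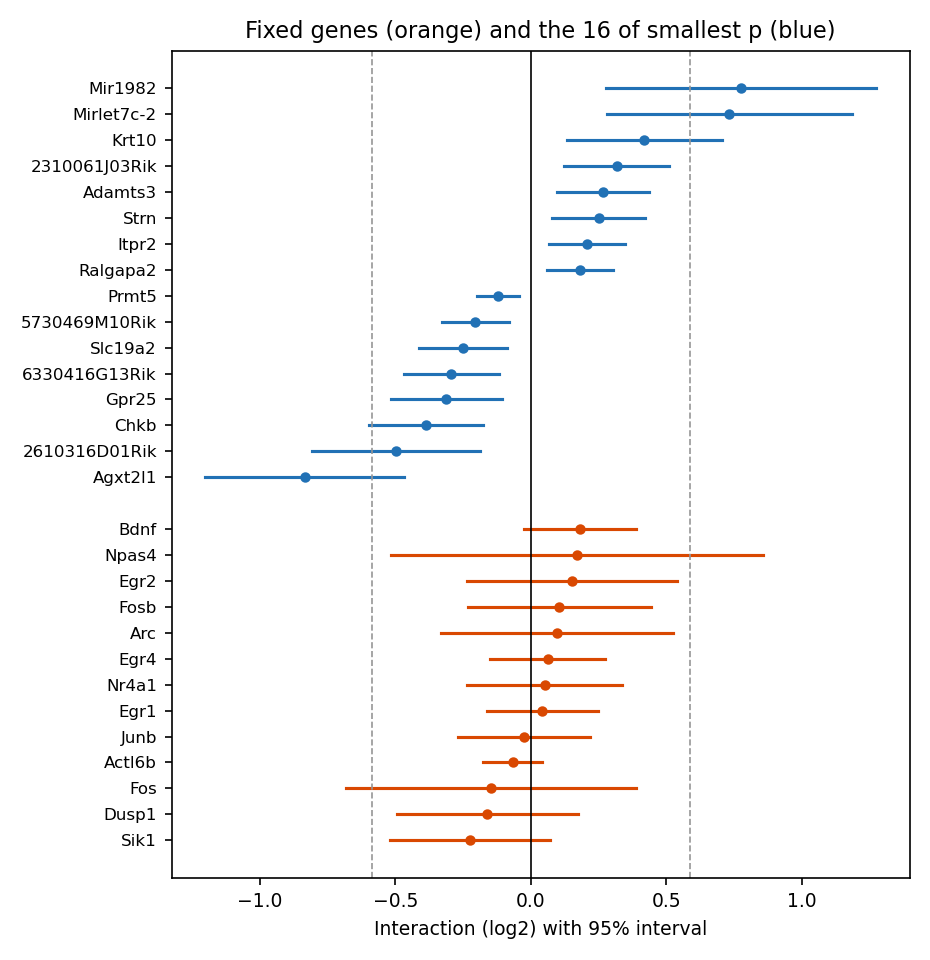
Interaction (log2) with its 95% interval for the genes fixed by name (orange) and the 8 genes of smallest p in each direction (blue); the solid line marks 0 and the dashed lines 1.5-fold. The orange intervals all cross 0, and the blue ones were chosen for not doing so.

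For the 50 early genes called on average, the ratio of the heterozygous to the wild-type response had a median of 102%, and the response was larger in heterozygotes in 25 and smaller in 25. With equal spread in the groups, which the model takes, the average response and the interaction are uncorrelated estimates in this balanced design. For the mean log2 level of the early gene list the SD was 0.088 in trained wild type and 0.029 in trained heterozygotes. It was 0.032 in both home cage groups. The choice of these genes may therefore not be independent of their interaction. An interval of the ratio exists where the wild-type response differs from 0, which held for 48 of the 50. It excluded a lost response in all 48 of these. It excluded a response of 50% or less of the wild-type one in 36 and one of 75% or less in 13. A gene whose response is lost in 1 genotype has a smaller average and is less likely to be called. These counts therefore describe the genes called and not the early gene list as a whole. In 0 of the 50 was the interaction at an unadjusted p under 0.05.

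The same reading over all 517 genes called on average has the same limit from the choice. It gave weaker bounds, at a median average response of 0.15 (log2). All 517 had the same sign in both genotypes, which the choice by the average nearly fixes. The response was larger in heterozygotes in 223 and smaller in 294, with a median ratio of 94.5%. It was larger in 173 of the 404 that rose and in 50 of the 113 that fell. Over all genes 44.2% of interactions were above 0, or 48.3% after median-ratio scaling and 50.6% after quantile normalization. The split was not tested against that share. Of the 517, 19 (3.68%) had an interaction at an unadjusted p under 0.05, as did 2.49% of all genes. Of the 468 with an interval, 402 excluded a lost response but 106 excluded 50% or less and 25 excluded 75% or less. In 13 genes the interval lay wholly below 100% and in 2 wholly above, with no adjustment over genes. An interval exists only where the wild-type response differs from 0. A gene with a weak wild-type and a stronger heterozygous response can therefore drop out, so these 2 counts cannot be compared with each other. Among the 21 genes whose average response exceeded 1.5-fold, all 21 intervals excluded a lost response, 20 excluded 50% or less and 10 excluded 75% or less.

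Genes that fell after training had smaller average responses than those that rose (median 0.138 against 0.161), with a like half-width of the interaction (median 0.138 against 0.144). Of 113 that fell on average (0.911% of genes), 75 had an interval that excluded a lost response, against 327 of the 404 that rose (3.26%). Hes1, a repressor of the Notch pathway, stood at 5.76 to 7.74 RPKM in wild-type home cage animals (median 6.203) and 4.12 to 5.89 after training (median 4.67), against 6.15 to 7.52 (median 6.52) and 3.74 to 5.28 (median 4.97) in heterozygotes. Its groups overlapped in wild type and not in heterozygotes, with an interaction of -0.05 (SE 0.12, unadjusted p = 0.689) and a ratio of 112% (61.8% to 211%). Lcmt2, whose product takes part in tRNA modification, had a ratio of 96.3% (47.5% to 192%), and Cirbp, encoding a cold-inducible RNA-binding protein, one of 116% (53.8% to 275%). Sox18, a transcription factor gene of endothelium, had 61.0% with an interval of 10.8% to 152%. Equal responses and large losses both lie within that interval. The Sox18 interaction of 0.15 was 0.06 without home cage heterozygote 2417 and 0.21 without home cage heterozygote 2401.

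Genes called in 1 genotype alone mostly had a difference of the same sign in the other. In wild type alone 65 genes were called, of which 64 had the same sign in heterozygotes and 43 an unadjusted p under 0.05 there (11% of all genes did). In heterozygotes alone 59 were called, of which 58 had the same sign in wild type and 47 an unadjusted p under 0.05 there (11.1% of all genes did). Of these, 63 and 56 were also called on average. The interaction had an unadjusted p under 0.05 in 14 of the 65 (21.5%) and 9 of the 59 (15.3%), against 1 of the 69 called in both, and 0 passed in any of the 3 sets. A call in 1 genotype selects genes with an interaction away from 0, so these shares are a description and cannot be read against the 2.49% of all genes.

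Of the genes with the smallest p none passed, and they are described as values. Agxt2l1, which encodes a phospholyase of phosphoethanolamine, stood at 2.85 to 4.48 RPKM in wild-type home cage animals (median 3.52) and 3.78 to 5.65 after training (median 4.24). In heterozygotes it stood at 4.09 to 5.73 in the home cage (median 4.74) and 2.33 to 4.52 after training (median 3.02). All pairs of groups overlapped, and the home cage groups themselves differed in median, so the value rests on all 4 groups. The interaction was -0.83 (SE 0.18, unadjusted p = 9.69e-05, adjusted p = 0.985). Leaving out 1 library moved it between -0.93 and -0.76, with adjusted p down to 0.0608 without trained heterozygote 2409, and limma array weights gave an adjusted p of 0.352. Chkb, a choline kinase gene, had -0.39 (SE 0.10, unadjusted p = 0.000839), with medians of 4.19 and 4.61 RPKM in wild type and 4.91 and 3.90 in heterozygotes.

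Positive values of small p included 2 microRNA precursors, whose mature sequences in RefSeq (GRCm38.p6) are given, with the seed (bases 2 to 8) in capitals, since the table itself counts reads over the short precursor and not the mature RNA.
mmu-let-7c-5p: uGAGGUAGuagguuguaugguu
mmu-let-7c-2-3p: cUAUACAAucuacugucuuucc
mmu-miR-1982-5p: uUGGGAGGguccuggggagg
mmu-miR-1982-3p: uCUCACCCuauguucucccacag
None of the 4 seeds is shared. Mirlet7c-2 stood at 1.48 to 2.12 RPKM in wild-type home cage animals (median 1.73) and 0.28 to 1.21 after training (median 0.827), and these groups did not overlap. In heterozygotes it stood at 1.42 to 1.85 (median 1.60) and 0.958 to 2.18 (median 1.57), and they did. The interaction was 0.73 (SE 0.22, unadjusted p = 0.00273), over a precursor of 95 bases on chromosome 15 at 85537033 to 85537127 (mm9), where few reads stand behind each value. Mir1982, a precursor of 74 bases inside the span of Oaz1 on chromosome 10, had 0.77 (SE 0.24, unadjusted p = 0.00386). Its reads cannot be told apart from those of Oaz1.

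Others with positive values were 2310061J03Rik (0.32), Krt10 (0.42), Adamts3, a procollagen peptidase gene (0.26), Strn (0.25), Itpr2, an inositol trisphosphate receptor gene (0.21), and Ralgapa2 (0.18). Those with negative values were 2610316D01Rik (-0.50), Gpr25 (-0.31), 6330416G13Rik (-0.29), 5730469M10Rik (-0.21), Prmt5, an arginine methyltransferase gene (-0.12), and the thiamine transporter gene Slc19a2 (-0.25). For Slc19a2 the wild-type medians were 3.13 and 3.96 RPKM and the heterozygous ones 3.50 and 3.54, and trained and home cage libraries overlapped in both genotypes. In these genes unadjusted p lay between 0.00218 and 0.00583. Ubfd1 (-0.17) and Stk35 (-0.14) were among the genes called for training in wild type alone.

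All 29 listed subunits of the BAF complex had an interval within 1.5-fold, as did 94.8% of all genes. Their median half-width was 0.127, against 0.155 over all genes. Of the 29, 16 were above 0 and 13 below, and the median interaction was 0.01. None passed and none had an unadjusted p under 0.05. The ATPase gene Smarca4 had 0.06 (SE 0.04, unadjusted p = 0.196), Arid1b 0.11 (SE 0.06, unadjusted p = 0.0642) and Smarce1, which rose on average, -0.10 (SE 0.06, unadjusted p = 0.0878). Actl6a, the gene for the progenitor subunit BAF53a, had 0.06 with a half-width of 0.208 and was named after its values were seen.

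Among 16 glucocorticoid-responsive genes, 4 of them also on the early gene list, 4 were above 0 and 12 below, with a median of -0.05, 0 called and 0 at an unadjusted p under 0.05. The median was -0.03 without trained wild-type animal 2436. Without trained heterozygote 2409 it was -0.10, with 3 at an unadjusted p under 0.05 (2.73% of all genes in that fit). Tsc22d3, the glucocorticoid-induced leucine zipper gene, had -0.24 (SE 0.12, unadjusted p = 0.0667), a ratio of 48.3% with an interval of 8.88% to 105%. Of 29 chaperones 8 were above 0 and 21 below, with a median of -0.03, which left-out libraries moved between -0.06 (without trained heterozygote 2429) and -0.01 (without trained wild-type animal 2421). Dnajb1 had -0.09 (SE 0.07) and a ratio of 79.5% (52.0% to 117%), while Dnajb5 had 0.16 (SE 0.10). Over all genes 44.2% were above 0 and the median was -0.01.

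Of 40 excitatory postsynapse genes 28 were above 0, with a median of 0.03 and 0 called. The NMDA receptor subunit genes Grin2a (0.33, SE 0.16, unadjusted p = 0.0457) and Grin2b (0.39, SE 0.19, unadjusted p = 0.047) and the scaffold gene Dlgap2 (0.16, SE 0.07, unadjusted p = 0.0347) were the 3 at an unadjusted p under 0.05. Grin2b had medians of 22.1 and 17.8 RPKM in wild type and 17.9 and 19.5 in heterozygotes, and all groups overlapped. Of 44 actin and spine cytoskeleton genes 29 were above 0, with a median of 0.03, 0 called and Arhgef7 at an unadjusted p of 0.0225 (0.10, SE 0.04). The mean log2 level of the postsynapse list was the lowest of its group in wild-type home cage animal 2418 (5.96), trained wild-type animal 2421 (5.90) and home cage heterozygote 2415 (5.93), which were also the lowest of their groups for dentate gyrus markers (3.37, 3.34 and 2.90). In trained heterozygotes the lowest libraries differed, 2429 for the postsynapse list (5.93) and 2416 for the markers (3.57). The part of these markers in the postsynapse values was not tested. The 39 ribosomal protein genes had a median of -0.0034, with 18 above 0.

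Marker lists of cell types and regions carried some of the widest intervals. No dentate gyrus, choroid plexus or oligodendrocyte marker was at 0 RPKM in any library. All 12 dentate gyrus markers were above 0, with a median of 0.28 and 0 called (0 at an unadjusted p under 0.05). Their summed level was 168 to 255 RPKM in wild-type home cage libraries, 165 to 252 after training, 121 to 239 in heterozygous home cage libraries and 191 to 264 after training. Without home cage heterozygote 2415, which held the lowest level, the median was 0.12, and without wild-type home cage animal 2418 it was 0.37. With their mean level as a term in the model, chosen after seeing the data, the number of genes at an unadjusted p under 0.05 for the interaction was 144 in place of 309, 0 were called and 702 were called for training on average.

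All 15 choroid plexus markers were below 0, with a median of -0.52 and a median half-width of 2.18. Their summed level was 73.1 to 2039 RPKM in wild-type home cage libraries, 94.9 to 1709 after training, 66.2 to 5471 in heterozygous home cage libraries and 76.9 to 2853 after training. Without home cage heterozygote 2424 the median was -0.06, and without trained heterozygote 2409 it was -1.05. All 12 oligodendrocyte markers were above 0 with a median of 0.13, which was 0.02 without wild-type home cage animal 2425 and 0.27 without 2404 of the same group. Their summed level was 1313 to 2955 RPKM in wild-type home cage libraries, 1707 to 2694 after training, 1803 to 2630 in heterozygous home cage libraries and 1942 to 2745 after training. The part of these cells in single-gene interactions was not tested beyond the models with list levels as terms. Without the 8 libraries rich in Ttr, 0 genes were called for the interaction, 706 of 12351 (5.72%) had an unadjusted p under 0.05, and 8 of the 75 early genes did, with 51 above 0.

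**Figure D5:**
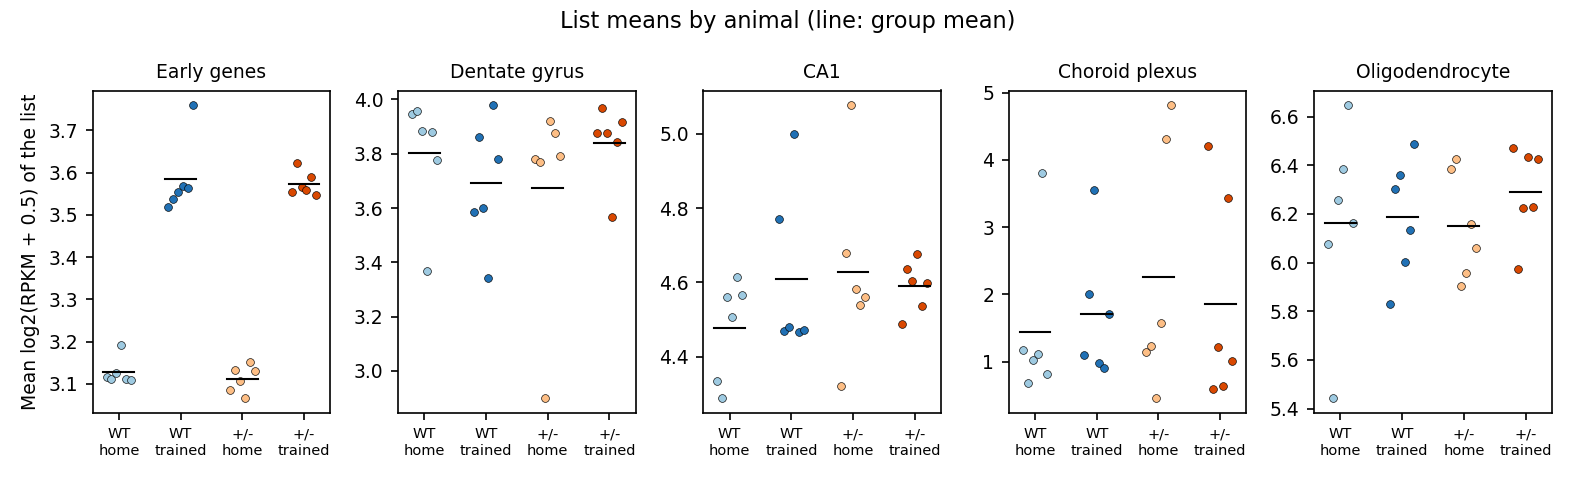
Mean log2(RPKM + 0.5) of 5 gene lists by library in the 4 groups of 6 (WT: wild type; +/-: Baf53b+/-), with the group mean as a line; the axes differ and do not start at 0. Early genes separate trained from home cage libraries in both genotypes, while dentate gyrus, CA1, choroid plexus and oligodendrocyte lists vary within every group, with single libraries far from the rest.

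CA1 markers had a median of -0.17 (3 of 8 above 0), which was -0.10 without trained wild-type animal 2421 and -0.11 without home cage heterozygote 2415. It was -0.21 without trained wild-type animal 2433. Medians were, for CA3 markers 0.02 (6 of 8), interneuron markers -0.11 (2 of 12), astrocyte markers -0.03 (3 of 12), microglia markers -0.01 (6 of 12), endothelial and mural markers 0.03 (10 of 16) and markers of thalamus, striatum and cortex -0.06 (5 of 15). None of these genes was called. The single blood marker tested, Alas2, had -0.41 (SE 0.23, unadjusted p = 0.0839).

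What the design bounds is thus the size of an interaction in tissue RNA at 30 minutes on the log2 scale. Taken 1 at a time, 11760 genes were bounded within 1.5-fold. With intervals widened to hold for all 12399 genes at once, 7720 were. The design cannot tell apart the Actl6b allele and the strain background that goes with it, or learning and the other parts of the training session. The libraries were sequenced in 4 pools with every behavioural group on each flow cell, but the labels do not tie animals to pools, and no batch was fitted. With Ddx3y as a term for sex, 0 genes were called and 395 had an unadjusted p under 0.05.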

How the data were processed

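The authors deposited RPKM values per gene and library, with mm9 positions. The submitters' processing notes name CASAVA 1.8.2, Bowtie 0.12.8 and mm9. Libraries were made with a TruSeq RNA v2 kit and read as single ends of 50 cycles, per the labels' protocols. Annotation, read total and handling of shared reads: not given in the sources used here.

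From these values log2(RPKM + 0.5) was computed for genes whose mean reached 1 RPKM, a scale that understates changes of low genes. A 4-group model was fitted to all 24 libraries with limma 3.58.1 in R 4.3.3 (trend and robust settings), with Benjamini-Hochberg adjustment at 0.05 over 12399 genes and 95% moderated intervals. Response ratios carry Fieller intervals. The script was tested on simulated data. Depth was read from 416 short single-exon genes: 33.3% to 43.9% of values up to 30 reads lay within 0.05 reads of a whole number, against at most 8.99% at the median total, and a count test was not used. Names turned into dates (18) and rows with repeated names (17) stayed separate.

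Named were Actl6b and fixed early genes, the 8 of smallest p in each direction, the 10 largest average rises and 6 largest falls, up to 4 members by p of each of 18 lists, the 3 widest and 3 narrowest intervals, and up to 6 genes called in 1 genotype. Other genes named are Dusp4, Dusp5, Dusp6, Dusp14, Egr3, Nr4a2, Ctgf and Actl6a, chosen after their values were seen. The contrast and lists were chosen with earlier results of these data known.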

Additional observations from a re-analysis of the deposited data

Results flagged for a closer look

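In groups of 6, the highest or lowest library was compared with its nearest neighbour. In 16 of 160 groups checked the gap was above Dixon's 95% critical value, which a single check passes by chance about 1 time in 20. All checks use the same 24 libraries and many of the genes rise together, so the count cannot be set against that rate. Trained wild-type animal 2436 was far above its group for Fos (23.4 RPKM), Junb (66.6), Egr1 (123), Egr2 (4.55), Nr4a1 (64.5) and Dusp1 (17.6), and for the mean log2 level of the early gene list (3.76). These values enter the wild-type response and lower the interaction of each gene.

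Trained heterozygote 2409 was low for Egr1 (85.7 RPKM), and trained heterozygote 2429 was high for Krt10 (4.32). Wild-type home cage animal 2404 was high for Bdnf (11.01), trained wild-type animal 2421 was high for Agxt2l1 (5.65), and home cage heterozygote 2401 was low for Cirbp (25.5). The mean log2 level of the dentate gyrus list was low in wild-type home cage animal 2418 (3.37), home cage heterozygote 2415 (2.90) and trained heterozygote 2416 (3.57). Animal 2418 was also high for the early gene list among home cage wild types (3.19).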

How the results depend on the processing

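The interaction gave 0 called genes under each of 13 other settings and in each of 24 fits that left out 1 library (limma; 144 to 706 genes at an unadjusted p under 0.05 over the settings, 188 to 559 over the left-out fits, the lowest without home cage heterozygote 2415 and the highest without wild-type home cage animal 2418 and, equally, without trained wild-type animal 2433). Genes bounded within 1.5-fold numbered 18383 of 19661 with no filter on low values. Genes called on average numbered 339 of 8548 at a mean of 5 RPKM or more and 150 of 12351 without the 8 libraries rich in Ttr, where fewer genes and fewer samples entered. Leaving out 1 library gave 415 to 541 called on average, 11678 to 11869 bounded within 1.5-fold, half-widths of 0.155 to 0.161 and early gene medians of -0.0034 to 0.0465.

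The following values changed sign, none of them called, and the cause was not tested. Array weights gave 0.000559 for Junb and -0.0247 for Lcmt2. With Ddx3y as a term Cirbp had 0.0226 and Lcmt2 -0.00836, and with the dentate gyrus level as a term, chosen after seeing the data, Hes1 had 0.0375. Without the 8 libraries Fos had 0.18 and Junb 0.186, and in untransformed RPKM Egr1 had -0.574 and Npas4 -0.112. Left-out libraries moved Arc from -0.0143 to 0.197, Cirbp from -0.105 to 0.000502, Fos from -0.253 to 0.00191, Hes1 from -0.0987 to 0.0126, Junb from -0.0607 to 0.0658 and Lcmt2 from -0.0311 to 0.0389. Of 447 values of named genes under the 13 settings 438 kept their sign and side of the threshold, as did 841 of 859 in the left-out fits.

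No paired analysis was possible because the replicate numbers in the labels differ between all groups. The spread between the 6 libraries per group sets the half-widths given. To be called as the only gene, a median gene would have needed a larger value, an observed interaction of 0.45. The part of depth in the spread was not tested.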
